A study of Drosophila melanogaster with 6 samples.

Results

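The genes described here build, modify or line the apical extracellular matrix and the cuticle of Drosophila melanogaster epithelia. They were chosen by symbol alone: all genes named Osi, obst-, Cht or Muc with a number or letter after it, together with kkv, serp and verm. The rule found 57 of the 14239 genes of the expression table, of which 23 are Osiris (Osi) genes, 8 obstructor (obst) genes, 10 chitinase (Cht) genes, 13 mucin (Muc) genes, and 3 are the chitin synthase kkv and the chitin deacetylases serp and verm.

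The study asked how transcription differs between regenerating and undamaged wing primordia. Ablated discs carried nub-GFP/+; rn-Gal4, GAL80ts, UAS-rpr/+, so that a shift of the larvae to 30 °C for 24 h drove the cell death gene rpr in the rotund domain of the wing disc, and 24 h of recovery at 18 °C then preceded dissection (R24). Mock-ablated control discs carried nub-GFP/+; rn-Gal4, GAL80ts/+ and went through the same shift. Both groups thus shared the driver, the GAL80 repressor and nub-GFP, a transposon insertion that reports nubbin, and in both the GFP-positive cells were sorted from pools of discs, with 3 replicates a group. The pools were not alike: an ablated replicate took several times more discs than a control replicate and gave fewer sorted cells. The table gives 1 FPKM (fragments per kilobase of transcript, scaled to the number of mapped fragments) per gene and group, so no value below has a spread between replicates and no difference was tested.

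Chitin is a polymer of N-acetylglucosamine. Epithelial cells make its precursor in the cytoplasm, extrude the polymer through the synthase Kkv at the apical membrane, then deacetylate it, bind it into a scaffold with Obstructor-type chitin-binding proteins and degrade it with chitinases at each molt. Osiris genes are an insect family of secreted or membrane-associated proteins, most of them in 1 tight chromosomal cluster, and are known from cuticle-secreting epithelia and tracheae. Mucins are heavily glycosylated proteins that coat apical surfaces such as the gut lumen.

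A gene entered the counts when its mean FPKM over both groups was at least 1, and was counted as higher or lower when the log2 ratio of ablated over control was at least 1.3 or at most -1.3, which is a 2.46-fold difference. Of the 57 genes, 18 passed the level filter. Among these, 5 (27.8%) were higher in ablated cells past the fold: Osi14, Osi15, Osi2, Cht7 and Cht6. Over all 8402 genes past the filter with both values above 0, 360 (4.28%) were. Osi15, at 0.311 FPKM in control cells, passed the filter only through its ablated value of 3.13 FPKM. None of the 18 was lower past the fold, against 164 (1.95%) of all genes. By any amount, 13 of the 18 were higher in ablated cells (72.2%), against 47.0% of all genes, and the median log2 ratio of the 18 was 0.48, beside -0.04 for all genes. The ratios of the 18 ran from -0.57 to 3.41.

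The other 39 genes had a mean under 1 FPKM, and for 28 of the 57 genes the authors' run noted too few fragments for a test. Of the 35 low genes whose values differed, 25 were higher in ablated cells (71.4%). This share lay below that of all low genes in the table, 80.1% of which were higher in ablated cells, so the direction of the low members as a set follows the table as a whole.

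**Figure D1:**
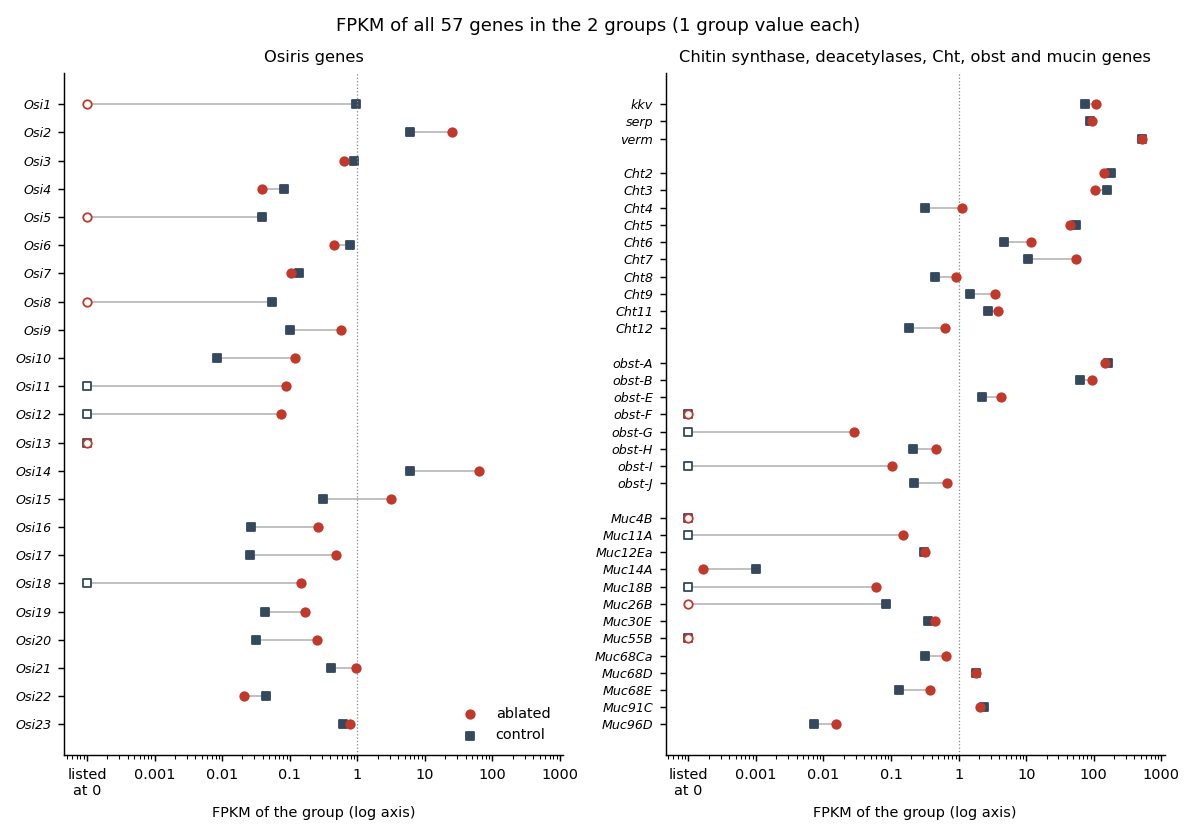
FPKM of each of the 57 genes on a log axis, with circles for the ablated group and squares for the control group, 1 value a group; open symbols at the left edge are values listed at 0, and the dotted line is 1 FPKM. Osi14, Osi2 and Cht7 show the wide gaps among the well-expressed genes, while verm, at 515 FPKM in ablated and 514 FPKM in control cells, shows none.

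The sorted cells carried the wing pouch markers in both groups, at lower levels in ablated cells for nub (51.8 FPKM in ablated, 89.9 FPKM in control), rn (18.9 and 31.0 FPKM) and vg (41.8 and 71.0 FPKM), while sd stood at 95.0 FPKM in ablated and 87.6 FPKM in control cells. The ablation gene rpr was at 55.2 FPKM in ablated and 70.3 FPKM in control cells. Markers of other cell types were compared as well. The summed FPKM of 5 myoblast markers was 32.2 in ablated and 5.73 in control cells, with 5 of 5 higher, that of 7 hemocyte markers 10.1 and 1.499, with 7 of 7 higher and NimC1 and PPO1 listed at 0 in control, and that of 6 fat body markers 4.24 and 1.76, with 6 of 6 higher. Of the hemocyte sum, PPO1, whose locus holds 5 other genes, gave 5.91 FPKM in ablated cells, and without it the sum was 4.197 FPKM in ablated and 1.499 FPKM in control cells. Of the hemocyte markers 5, of the fat body markers 5 and of the myoblast markers 2 (htl and zfh1) had a mean under 1 FPKM. Over the whole table, 80.1% of such low genes were higher in ablated cells. The myoblast markers twi (0.247 FPKM in control cells) and Him (0.936 FPKM) passed the filter only through their ablated values. The 6 salivary gland markers summed to 13.0 FPKM in ablated and 13.5 FPKM in control cells, with 2 of 6 higher and Sgs4 and Sgs5 listed at 0 in both, and the 7 midgut markers to 2.72 and 2.01 FPKM, with 5 of 7 higher. The 9 genes listed as tracheal markers summed to 515 FPKM in ablated and 598 FPKM in control cells, with 5 of 9 higher and a median log2 ratio of 0.41. Of these sums, pio gave 126 FPKM in ablated and 340 FPKM in control cells, and without it the ablated sum would be the higher one. Gasp gave 232 FPKM in ablated and 121 FPKM in control cells. Whether these genes were expressed only in tracheal cells was not tested, so their sum does not measure tracheal cells. In such bulk samples fewer cells of a type and less RNA per cell cannot be told apart, and the part that these cell types had in the results below was not tested.

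The 3 genes with an Osi symbol that passed the filter were all higher in ablated cells past the fold. Osi15 passed it only through its ablated value. Osi14 and Osi15 had the largest ratios of the 18 genes. A further family member went the other way: CG15589, which release 6 names Osi24 and the symbol rule therefore missed, was at 8.93 FPKM in ablated and 13.6 FPKM in control cells (log2 ratio -0.60), and in control cells it was more abundant than Osi14 or Osi2. The 23 genes chosen by symbol, without CG15589, summed to 96.8 FPKM in ablated and 16.6 FPKM in control cells, a ratio of 5.83. With CG15589 added, this ratio and the shares that follow would be smaller. Osi14, Osi2 and Osi15 held 94.7% of the sum without CG15589 in ablated and 74.5% in control cells. The other 20 genes summed to 5.16 FPKM in ablated and 4.23 FPKM in control cells, a ratio of 1.22, and each of them had a mean under 1 FPKM. Only these 3 of the 23 genes passed the level filter.

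Osi14 (chromosome arm 3R, 2124854 to 2126472, in the coordinates of the authors' genome build, as for all positions given below) stood at 63.3 FPKM in ablated cells and 5.96 FPKM in control cells, a 10.6-fold difference with a log2 ratio of 3.41. It ranked 33rd by ratio among the 8402 genes. Alone it made up 65.4% of the sum of the Osiris genes chosen by symbol in ablated cells, against 35.9% in control cells. Osi15 (3R, 2127528 to 2129375) starts 1055 bases beyond the end of Osi14. It was at 3.13 FPKM in ablated and 0.311 FPKM in control cells, a log2 ratio of 3.33 and 10.1-fold, which a pseudocount of 1 FPKM brought to 1.65. The neighbours thus had nearly the same ratio at levels that differed 20.2-fold in ablated and 19.2-fold in control cells.

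Osi2 (3R, 2036721 to 2039214) lies near the other end of the cluster. It was at 25.2 FPKM in ablated and 6.10 FPKM in control cells, 4.14-fold with a log2 ratio of 2.05. In control cells Osi14 and Osi2 had almost the same level, with an Osi14 to Osi2 ratio of 0.978, and in ablated cells that ratio was 2.51.

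The 20 genes Osi1 to Osi20 span 167.8 kb of 3R (1999367 to 2167146), where the table lists 7 other genes. In the release 6 annotation, 19 of the 20 were found by name and 17 of these lie on the plus strand, with Osi4 and Osi11 on the minus strand. The 17 low genes of the cluster were split by position, a division made after the values were seen and given as a description only. All 6 genes from Osi3 to Osi8 were lower in ablated cells, and summed to 1.24 FPKM in ablated and 1.98 FPKM in control cells. Among them, Osi3 was at 0.643 FPKM in ablated and 0.883 FPKM in control cells, and Osi6 at 0.450 and 0.788 FPKM. Osi5 and Osi8 were listed at 0 in ablated cells and under 0.1 FPKM in control cells.

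Of the 12 genes from Osi9 to Osi20, Osi14 and Osi15 included, 11 were higher in ablated cells and Osi13 was listed at 0 in both groups. The low ones were Osi9, at 0.567 FPKM in ablated and 0.102 FPKM in control cells (log2 ratio 2.47), Osi17, at 0.484 and 0.0259 FPKM (4.22), and 7 others that had at most 0.259 FPKM in ablated cells, the value of Osi16. Osi11, Osi12 and Osi18 were listed at 0 in control cells. Osi9, Osi15 and Osi19 are known from the maturation of tracheal tubes. Osi19 stood at 0.168 FPKM in ablated and 0.0424 FPKM in control cells. Since 80.1% of all low genes were higher in ablated cells, the direction of the 9 low genes from Osi9 to Osi20 is the usual one in this table, and that of Osi3 to Osi8 is the less frequent one.

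Osi1, at the start of the cluster, lies 36165 bases from Osi2, with 3 other genes between them. It was listed at 0 in ablated cells and at 0.945 FPKM in control cells. The 3 Osiris genes outside the cluster were low in both groups: Osi21, on 2L, at 0.972 FPKM in ablated and 0.411 FPKM in control cells, Osi23 at 0.775 and 0.605 FPKM, and Osi22 at 0.0210 and 0.0445 FPKM. Osi23 is known for the pores of olfactory bristles.

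**Figure D2:**
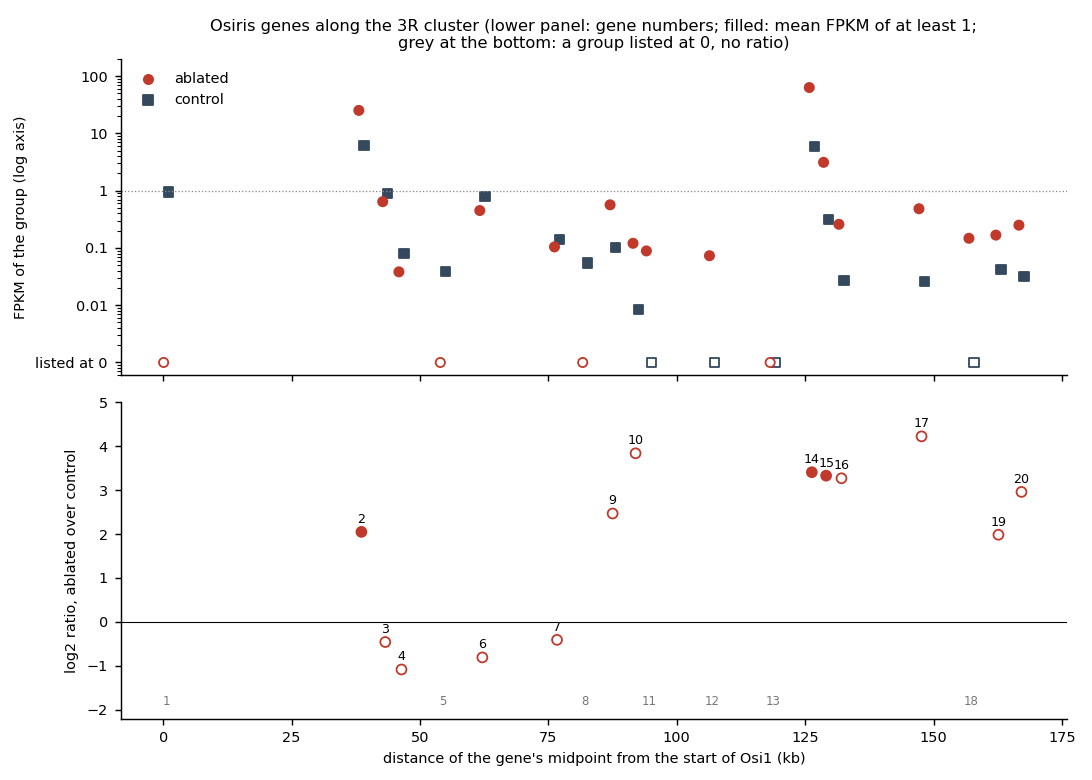
Osiris genes of the 3R cluster by the distance of their midpoint from the start of Osi1 in kb. The upper panel gives FPKM on a log axis for the ablated group (circles, drawn slightly left) and the control group (squares, slightly right), with open symbols for values listed at 0, and the lower panel gives the log2 ratio of ablated over control, filled for a mean of at least 1 FPKM. Osi14 and Osi15 sit side by side at log2 ratios of 3.41 and 3.33, and the points for Osi3, Osi4, Osi6 and Osi7 lie below 0.

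Among the chitinases past the filter, Cht7 and Cht6 were higher in ablated cells past the fold, and Cht9 and Cht11 higher within it. The abundant Cht2, Cht3 and Cht5 were slightly lower, though under another scaling this nearly vanished for Cht2 and vanished for Cht5. Cht7 (3L, 3090985 to 3106956), a chitinase with a role in organising cuticle chitin, was at 53.9 FPKM in ablated cells and 10.6 FPKM in control cells, 5.10-fold with a log2 ratio of 2.35. Cht6 (X, 9924145 to 9938633) was at 11.9 FPKM in ablated and 4.62 FPKM in control cells, 2.58-fold with a log2 ratio of 1.37. It lay just past the fold and lost its call at a log2 ratio of 1.5 and with a pseudocount of 1 FPKM. Cht9 just missed it, at 3.51 FPKM in ablated and 1.49 FPKM in control cells (1.24). Cht11 was at 3.83 and 2.76 FPKM (0.48).

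The chitinases with the highest mean over both groups differed less, within the fold. Cht2 was at 139 FPKM in ablated and 177 FPKM in control cells (log2 ratio -0.35, or -0.06 with both groups rescaled to the same sum). Cht3, named Cht10 in release 6 and a large chitinase of the molting cuticle, was at 104 and 155 FPKM (-0.57). Cht5, also a molting chitinase, was at 44.8 and 54.4 FPKM (-0.28, or 0.00 with both groups rescaled to the same sum). These 3 genes together held 79.2% of the family's summed FPKM in ablated cells and 95.0% in control cells, while Cht7 held 14.8% and 2.60%. The family sum was 364 FPKM in ablated and 407 FPKM in control cells, so the make-up of the chitinases differed more than their total. In ablated cells Cht7 was 1.20 times as abundant as Cht5, and in control cells 0.194 times.

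Cht12, Cht4 and Cht9 lie next to each other on 2R, 393 and 894 bases apart, with Cht8 overlapping Cht12. All 4 were higher in ablated cells, at low levels. Cht12, Cht4 and Cht8 had means under 1 FPKM, and 80.1% of all such low genes whose values differed were higher in ablated cells. Cht4 was at 1.13 FPKM in ablated and 0.313 FPKM in control cells (log2 ratio 1.85), Cht12 at 0.619 and 0.185 FPKM (1.74), and Cht8 at 0.902 and 0.440 FPKM (1.04). The values of Cht8 and Cht12, which the table gives the same locus, are uncertain for that reason.

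**Figure D3:**
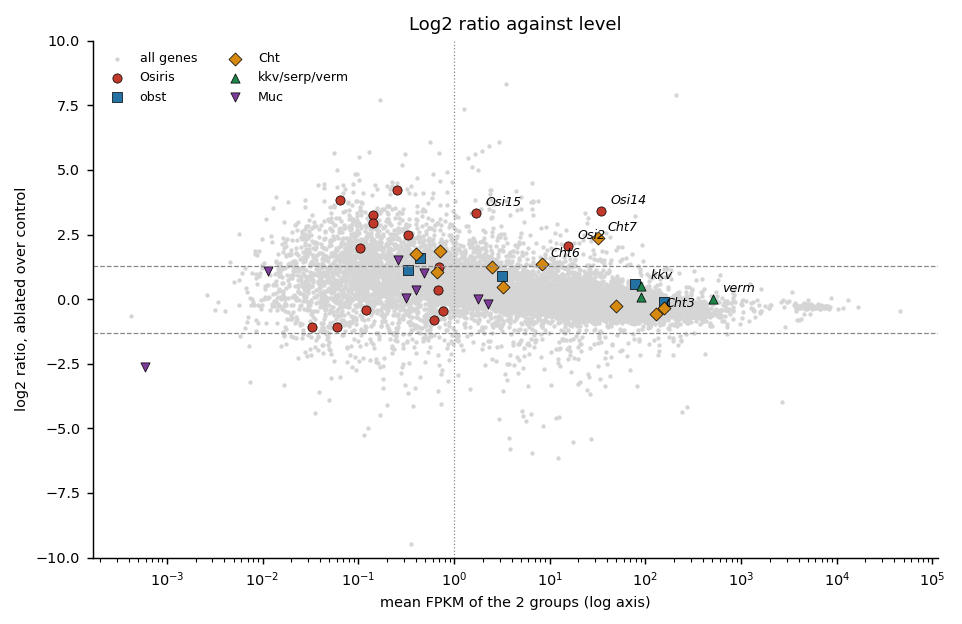
Log2 ratio of ablated over control against the mean FPKM of both groups on a log axis, for all genes with both values above 0 (grey) and for the families (coloured symbols); the dotted line is 1 FPKM and the dashed lines are log2 ratios of 1.3 and -1.3. Osi14 (3.41), Osi2 (2.05) and Cht7 (2.35) lie above the upper dashed line at mean levels above 10 FPKM, and the cloud of all genes below 1 FPKM is shifted upward.

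The synthase and the deacetylases were among the more abundant genes of the set and differed little. kkv, which encodes the chitin synthase of cuticle and tracheae, was at 106 FPKM in ablated and 75.4 FPKM in control cells (log2 ratio 0.49), at a locus it shares with CG14668 and a small nuclear RNA gene. The neighbouring deacetylase genes verm and serp, known for limiting tracheal tube length, lie 5720 bases apart on 3L. verm was at 515 FPKM in ablated and 514 FPKM in control cells (0.00), and serp at 93.4 and 87.6 FPKM (0.09). verm was the most abundant of the 57 genes, 4.86 times as abundant as kkv in ablated cells and 6.81 times in control cells.

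The obstructor genes were also within the fold wherever they passed the filter. obst-A, whose product is a scaffold of the chitin matrix, was at 148 FPKM in ablated and 162 FPKM in control cells (log2 ratio -0.12, or 0.16 with both groups rescaled to the same sum). obst-B was at 92.8 and 61.9 FPKM (0.58), and obst-E, which shapes the larval and pupal cuticle, at 4.18 and 2.25 FPKM (0.89). obst-A was thus 1.60 times as abundant as obst-B in ablated cells and 2.61 times in control cells. Among the 5 low genes, obst-J was at 0.662 FPKM in ablated and 0.219 FPKM in control cells (1.60), at a locus shared with 3 other genes. The rest had at most 0.458 FPKM in either group, obst-G and obst-I were listed at 0 in control cells and obst-F in both.

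The mucins were nearly silent in both groups. Their 13 values summed to 5.92 FPKM in ablated and 5.412 FPKM in control cells, and 2 genes passed the filter. Muc68D was at 1.80 FPKM in both (log2 ratio 0.00) and Muc91C at 2.09 FPKM in ablated and 2.40 FPKM in control cells (-0.20, or 0.08 with that rescaling). The other 11 reached at most 0.652 FPKM in ablated cells, the value of Muc68Ca, which was at 0.321 FPKM in control cells. Of these 11, 7 were higher and 2 lower in ablated cells and Muc4B and Muc55B were listed at 0 in both. The share higher among those that differed, 77.8%, was near the 80.1% of all such low genes.

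Some small differences depended on scale. The FPKM of the table summed to 889990 in the ablated and 1081834 in the control group, and rescaling both to the same sum raised each log2 ratio by 0.28 and the median of all genes to 0.24. Of the 18 genes, obst-A, Muc91C and Cht5 then changed sign. The calls of Osi14, Osi15, Osi2, Cht7 and Cht6 held under this rescaling, and Cht9 joined them.

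The wider chitin pathway was described with a list of 17 genes outside the symbol rule. Of these, 13 passed the filter, and 2 (15.4%) were higher past the fold in ablated cells and 0 lower, against 4.28% higher and 1.95% lower among all genes, with a median log2 ratio of -0.02 beside -0.04. Cda5, a chitin deacetylase, was at 8.69 FPKM in ablated and 1.47 FPKM in control cells (2.56). reb, which is needed together with Kkv to deposit chitin and is listed as CG13183, was at 5.33 and 1.68 FPKM (1.66). Its relative exp, listed as CG13188, was at 7.37 and 3.40 FPKM (1.12).

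Along the route, the 4 precursor genes that passed the filter were lower in ablated cells, all within the fold. Of all 8402 genes past the filter, 4451 were lower by any amount, so this is the more frequent direction. Gfat2, at the entry of the hexosamine pathway, was at 33.2 FPKM in ablated and 47.0 FPKM in control cells (log2 ratio -0.50). Gnpnat, the acetyltransferase that follows it, was at 58.9 and 105 FPKM (-0.83), nst, the mutase, at 29.2 and 44.9 FPKM (-0.62), and mmy, which makes the activated sugar UDP-N-acetylglucosamine, at 6.94 and 9.87 FPKM (-0.51). These 4 kept their direction under the rescaling, since each ratio was below -0.28. Gfat1 was listed at 0 in both groups.

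Genes of deposition and modification were mixed. Gasp, a chitin-binding protein of the obstructor type, was at 232 FPKM in ablated and 121 FPKM in control cells (log2 ratio 0.94), and the deacetylase gene Cda4 at 189 and 101 FPKM (0.91). knk, which protects new chitin, was at 65.5 and 56.9 FPKM (0.20), and rtv, which acts with it, at 27.3 and 50.2 FPKM (-0.88). Of the hexosaminidases, Hexo1 was at 75.9 and 135 FPKM (-0.83), fdl at 10.6 and 10.8 FPKM (-0.02) and Hexo2 at 1.02 and 0.918 FPKM (0.15). Cda9 and the synthase gene CS-2, known for the gut lining, were under 1 FPKM in both groups, Cda9 at 0.706 FPKM in ablated and 0.0941 FPKM in control cells and CS-2 at 0.198 and 0.0469 FPKM.

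**Figure D4:**
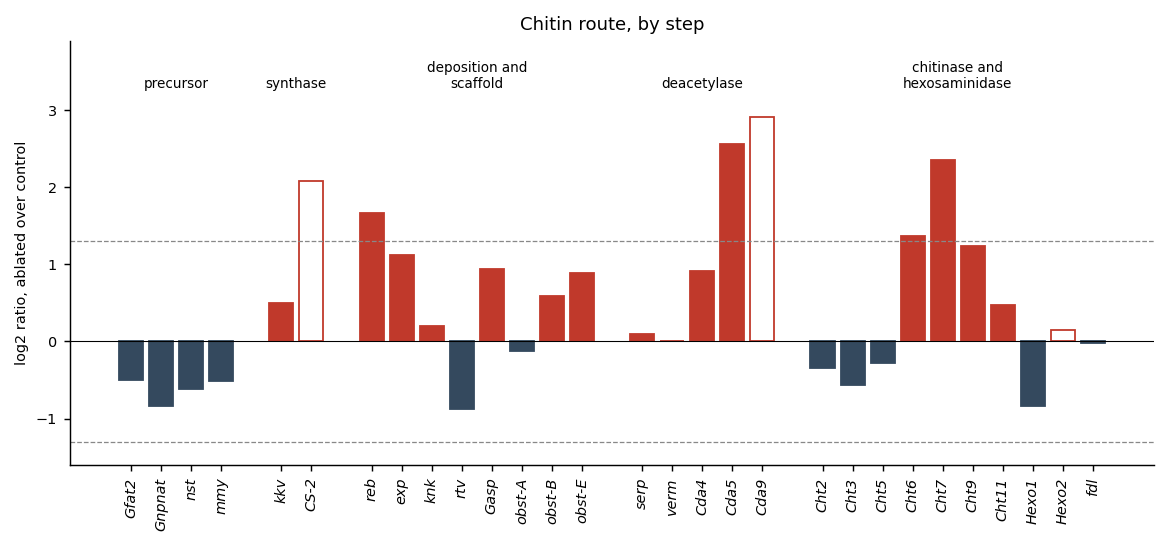
Log2 ratio of ablated over control for genes of the chitin route, grouped from precursor to turnover, with red bars above 0 and dark bars below 0, open bars for a mean under 1 FPKM, and dashed lines at 1.3 and -1.3. The 4 precursor genes lie between -0.83 and -0.50, and reb (1.66), Cda5 (2.56), Cht7 (2.35) and Cht6 (1.37) pass the upper line among the filled bars.

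Transcription factors known for cuticle and tracheal programs differed widely from one another. ftz-f1, a nuclear receptor of the molting cycle, was at 12.0 FPKM in ablated and 0.895 FPKM in control cells (log2 ratio 3.75). Blimp-1, an ecdysone-induced repressor of ftz-f1, was at 0.506 and 6.01 FPKM (-3.57). trh, the selector gene of the tracheae, was at 3.64 and 21.8 FPKM (-2.58).

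The epidermal barrier factor grh was at 54.5 FPKM in ablated and 55.0 FPKM in control cells (-0.01), ovo, known for apical cell projections, at 35.6 and 30.1 FPKM (0.24), and vvl at 69.7 and 52.4 FPKM (0.41), while rib was near 0 in both. Of the tracheal markers, the FGF receptor gene btl was at 3.33 FPKM in ablated and 1.07 FPKM in control cells (1.64), and pio, which encodes an apical matrix protein, at 126 and 340 FPKM (-1.43). Of the other tracheal markers, kni (-0.53) and knrl (-0.02) were lower and dys (0.63) and uif (0.52) higher. The genes listed as tracheal markers were mixed, with trh and pio lower in ablated cells and btl and Gasp higher. The part that tracheal cells had in the higher levels of Osi14, Osi15 and Osi2 was not tested.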

How the data were processed

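mRNA of sorted nub-GFP wing disc cells was sequenced from 3 ablated and 3 control replicates, pooled over dissections. The authors trimmed the reads, aligned them with TopHat2 (0.6, at most 2 mismatches) to build 5.41 of the genome and estimated FPKM with Cufflinks (0.0.7) and Cuffdiff, with geometric library normalization and correction for bias and for reads mapping to several places. The deposited FPKM are 1 value per gene and group. The study states an approximate read depth per replicate, but the table holds neither counts nor mapped totals, so no interval or detection limit was computed. The table also holds the authors' log2 fold change, test statistic, p-value, q-value and significance call, which were not used. Their status note (enough fragments or not) was used as a description and in 1 alternative.

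The log2 ratio of ablated over control was computed without a pseudocount in Python 3.11.15 (pandas 2.3.3, numpy 2.4.6). The counts took genes whose mean reached 1 FPKM, with both values above 0 and a log2 ratio of 1.3 either way; the code was tested on simulated data. Values and ratios are given for genes past the filter, for low ones past the fold whose higher group reached 0.5 FPKM, and for genes listed at 0 in 1 group with at least 0.5 FPKM in the other; the remainder by count and range, with some named after their values were seen. Genes and lists were chosen with earlier results of these data known. Coordinates are of build 5.41, counted from 1, and 56 of the 57 genes matched a release 6 name. The kit was stranded, but use of strand in counting was not stated, so values of overlapping genes are uncertain. Among these are nub, rn, sd, btl, exp, rtv, Hexo1, Hexo2 and fdl, whose loci hold other genes. Promoter and protein sequences were not analysed here.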

Additional observations from a re-analysis of the deposited data

How the results depend on the processing

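The count of genes higher in ablated cells depended on the level filter. It was 5 of 18 members at a mean of at least 1 FPKM and 14 of 37 at a mean of at least 0.1 FPKM. With no filter but both values above 0 it was 15 of 42, and 8 of 28 where the authors' status note replaced the filter. The share of all genes higher was 4.28%, 10.3%, 12.5% and 7.15% in the same order. The count of lower genes was 0, and 1 with no filter but both values above 0 (Muc14A, under 0.01 FPKM in both groups). Members listed at 0 in 1 group entered neither count. These were 7 at 0 in control cells only and 4 at 0 in ablated cells only, Osi1 among the 4. The other settings gave 4 to 6 higher and 0 lower. A mean of at least 5 FPKM left out Osi15, a pseudocount of 1 FPKM and a log2 ratio of 1.5 lost Cht6, and rescaling and a log2 ratio of 1.0 added Cht9. With the rescaling, 7.05% of all genes were higher and 1.46% lower past the fold, against 4.28% and 1.95%.

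No paired analysis was possible because the table holds 1 value per group, and no fit without a replicate was run. No difference was set against replicate error, and the fragments behind each value are not in the table.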

Other observations

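The Osiris cluster holds 7 genes without an Osi symbol in the table, CG15589 (Osi24) among them. CG31556 and CG31560, between Osi16 and Osi17, were at 0.968 and 0.715 FPKM in ablated cells, against 0.144 and 0.139 FPKM in control cells. CG15597 was at 0.241 FPKM in ablated cells and listed at 0 in control cells, CG15594 was under 0.01 FPKM and CG31562 was listed at 0 in both groups. NPFR1, a neuropeptide receptor gene between Osi1 and Osi2, was at 0.00619 FPKM in ablated and 0.0933 FPKM in control cells.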
